A study of Mus musculus with 12 samples.

Results

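The regions described here were distal stretches of chromatin that carried acetylation of histone H3 lysine 27 (H3K27ac) at every stage of mouse gastrulation from early streak to early headfold. H3K27ac peaks of 5 stages were merged where they overlapped, which gave 50341 regions. Of these, 22467 overlapped a peak at all 5 stages. A total of 8108 of the 22467 lay more than 1 kb and at most 50 kb from the nearest outer end of a protein-coding gene, and these are called stable distal regions below. The other stable regions lay within 1 kb of a gene end (12831) or more than 50 kb away (1528). The regions were chosen by the H3K27ac peaks of these 5 stages and by distance, so their H3K27ac presence and distance are descriptions and not findings. The measures that the choice did not use were H3K27ac at the preceding stage, H3K4me1 at every stage, and the annotation under the regions.

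The study profiled C57BL/6 embryos with CoBATCH, in which a tethered transposase inserts adapters next to an antibody-bound histone mark. Embryos were staged by morphology as pre-streak (Pre_PS, labelled E6.0), early streak (ES, E6.0 and E6.5), mid-streak (MS, E6.0 and E7.0), late streak (LS, E7.0 and E7.25), no allantoic bud (OB, E7.25 and E7.5) and early headfold (EHF, E7.5), where E gives the embryonic day. Tissue outside the embryo proper had been dissected away at the 4 stages up to LS, and for the last pair of stages no such step is described. Each stage had 1 peak list per mark, so no value has a replicate, no difference between stages was tested, and intervals given below cover counting error only. No treatment or mutation was used, and all embryos were of the same strain. The peak lists come from whole cell suspensions, so a gain of cells that carry a mark and a gain of mark per cell cannot be told apart.

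H3K27ac marks active promoters and active enhancers, and H3K4me1 marks enhancers and the flanks of promoters, including enhancers that are not yet acetylated. Enhancers can lie far from the gene they act on, inside introns of that gene or of a neighbour. During gastrulation the epiblast gives rise to mesoderm, endoderm and ectoderm under Wnt, Nodal, Bmp and Fgf signals. A gene named below is only the gene with the nearest annotated end, and which gene a region acts on was not measured.

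Some stable distal regions held the start of a protein-coding transcript, since a gene with several starts can have one well inside its outer ends. The next 6 windows are such starts from genes of the lists used below, and they were chosen after their values were seen to span the range from dense to sparse CpG. Each window runs from 250 bases before to 50 bases after a start in RefSeq on GRCm38.p6, lies wholly within bases acetylated at all 5 stages, and is written 5′ to 3′ on the strand of its gene. Capitals mark GGGCGG or its reverse complement.
Dnmt3a, chr12:3806730-3807029, plus strand: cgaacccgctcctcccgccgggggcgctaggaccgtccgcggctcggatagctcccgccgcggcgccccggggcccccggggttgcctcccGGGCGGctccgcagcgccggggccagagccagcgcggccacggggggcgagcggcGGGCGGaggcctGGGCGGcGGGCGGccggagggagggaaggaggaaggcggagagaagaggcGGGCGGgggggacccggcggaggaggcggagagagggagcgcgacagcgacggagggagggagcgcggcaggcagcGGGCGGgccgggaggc
Axin2, chr11:108920099-108920398, plus strand: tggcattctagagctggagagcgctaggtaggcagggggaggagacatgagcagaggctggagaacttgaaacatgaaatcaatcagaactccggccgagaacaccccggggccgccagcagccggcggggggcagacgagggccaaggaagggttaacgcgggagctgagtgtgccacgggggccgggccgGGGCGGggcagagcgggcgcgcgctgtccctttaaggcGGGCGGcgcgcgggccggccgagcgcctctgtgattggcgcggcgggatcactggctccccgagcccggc
Gata2, chr6:88198414-88198713, plus strand: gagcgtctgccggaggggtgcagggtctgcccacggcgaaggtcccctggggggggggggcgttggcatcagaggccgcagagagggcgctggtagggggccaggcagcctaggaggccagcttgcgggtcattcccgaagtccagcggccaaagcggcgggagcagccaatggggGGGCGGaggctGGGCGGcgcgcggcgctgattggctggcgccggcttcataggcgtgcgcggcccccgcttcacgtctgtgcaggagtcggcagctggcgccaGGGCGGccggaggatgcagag
Pax2, chr19:44756656-44756955, plus strand: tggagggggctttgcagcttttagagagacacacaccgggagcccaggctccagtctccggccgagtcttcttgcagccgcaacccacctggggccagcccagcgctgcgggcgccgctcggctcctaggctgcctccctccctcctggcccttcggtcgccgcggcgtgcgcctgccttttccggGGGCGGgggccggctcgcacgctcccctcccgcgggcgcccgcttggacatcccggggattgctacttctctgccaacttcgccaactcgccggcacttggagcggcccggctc
Prdm1, chr10:44458699-44458998, minus strand: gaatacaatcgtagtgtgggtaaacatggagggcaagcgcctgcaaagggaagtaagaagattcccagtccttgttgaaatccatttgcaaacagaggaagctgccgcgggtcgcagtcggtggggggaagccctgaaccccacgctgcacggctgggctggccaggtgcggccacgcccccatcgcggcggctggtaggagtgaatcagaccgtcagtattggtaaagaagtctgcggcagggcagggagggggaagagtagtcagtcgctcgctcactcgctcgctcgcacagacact
Tbx4, chr11:85896515-85896814, plus strand: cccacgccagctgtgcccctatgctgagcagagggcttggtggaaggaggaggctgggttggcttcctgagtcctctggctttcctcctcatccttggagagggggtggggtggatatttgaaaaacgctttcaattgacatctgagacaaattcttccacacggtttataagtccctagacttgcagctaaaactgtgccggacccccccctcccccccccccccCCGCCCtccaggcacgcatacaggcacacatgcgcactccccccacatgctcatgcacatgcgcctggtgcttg

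The window of Dnmt3a, a de novo DNA methyltransferase, held 46 CpG dinucleotides and 6 GGGCGG matches. The window of Axin2, a negative regulator and target of Wnt signalling, held 31 CpG and 2 matches. Gata2, a blood and endothelial transcription factor, had 29 CpG and 3 matches, and Pax2, a transcription factor of the neural plate and kidney, had 30 CpG and 1 match. Prdm1, a repressor needed for germ cell specification, had 20 CpG and no match, and Tbx4, a T-box factor of the allantois and hindlimb, had 8 CpG and 1 match. The regions around the first 4 starts carried H3K27ac at Pre_PS over 2437, 2384, 2164 and 2730 bp respectively. Acetylation at Pre_PS did not follow CpG number in every window of the lists: a Pcgf2 window with 10 CpG lay in a region with 2120 bp at Pre_PS, and an Amotl1 window with 21 CpG in a region with none. The Prdm1 and Tbx4 regions had no H3K27ac peak at Pre_PS, and they were acetylated over 780 to 1243 bp and 1747 to 1993 bp at the later stages.

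Several microRNA hairpins also lay in stable distal regions. The following mature sequences, from RefSeq, belong to hairpins chosen after their values were seen because they share a region or a sequence with another listed hairpin. Capitals mark the seed, bases 2 to 8.
mmu-miR-17-5p: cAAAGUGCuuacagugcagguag
mmu-miR-20a-5p: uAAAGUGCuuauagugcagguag
mmu-miR-18a-5p: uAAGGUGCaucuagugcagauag
mmu-miR-19a-3p: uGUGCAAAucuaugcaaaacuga
mmu-miR-9-5p: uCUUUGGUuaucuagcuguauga
mmu-miR-183-5p: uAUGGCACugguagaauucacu
mmu-miR-96-5p: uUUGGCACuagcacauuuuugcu

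The first 4 came from 1 region, chr14:115040049-115044303, that held the hairpins Mir17, Mir18, Mir19a and Mir20a, part of a cluster known to promote proliferation. Its nearest protein-coding gene end, that of Gpc5, was 47.9 kb away. miR-17-5p and miR-20a-5p shared the seed AAAGUGC, whereas miR-18a-5p and miR-19a-3p each had another. Acetylation covered 2268 bp of this region at Pre_PS and 3906, 4152, 4060, 3972 and 4131 bp at ES, MS, LS, OB and EHF. miR-9-5p, a microRNA of neural progenitors, was encoded in 2 stable distal regions with the same mature sequence, at Mir9-1 (chr3:88214274-88216199) and Mir9-3 (chr7:79504521-79509266). The Mir9-1 region had no H3K27ac peak at Pre_PS and 1505 to 1921 bp afterwards, while the Mir9-3 region had 1458 bp at Pre_PS and 2260 to 4623 bp afterwards. Mir183 and Mir96, known from sensory cells, shared chr6:30169137-30170576, which had no H3K27ac peak at Pre_PS and 1133 to 1383 bp afterwards. In all, 64 stable distal regions (0.789%) held 75 of the 1005 hairpins in the table, beside 0.475% of all merged regions. Of these 64, 32 had H3K27ac at Pre_PS, beside 29.1% of all stable distal regions. Inside a protein-coding gene lay 48 of the 64, beside 72.1% of all stable distal regions.

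The Pre_PS lists stood apart from the others and bear on every value at that stage. The Pre_PS H3K27ac list held 13398 peaks and the later lists 30072 to 39635. A fold-derived estimate of background, in fragments expected at a peak of the lowest value, was 0.0499 at Pre_PS and 0.211 to 0.330 later. For H3K4me1 the same estimate was 0.0144 at Pre_PS and 0.164 to 0.347 later, and 67.3% of the Pre_PS H3K4me1 peaks had that lowest value, against 2.64% to 9.77% later. A region without a peak at Pre_PS is therefore one where none was detected at this depth. The depth of the reads themselves is unknown.

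The acetylated extent of stable distal regions differed between stages. Their merged width ran from 402 to 30658 bp with a median of 1190 bp, against a median of 486 bp for the 17541 regions at the same distances that had a peak at 1 to 4 stages. Width comes from the same peaks that chose the regions, and merging peaks of more lists can only widen a region, so these widths are a description. Together they spanned 13.2 Mb, of which 6.90 Mb (52.1%) was acetylated at all 5 stages, and this common core had a median of 571 bp per region. In 76 regions no base was shared by all 5 stages. The median acetylated length was 923 bp at ES, 840.5 bp at MS, 928 bp at LS, 816.5 bp at OB and 838 bp at EHF. They made up 25.3% to 26.9% of the bases in each later H3K27ac list and 16.1% at Pre_PS. Just inside the lower limit were regions 1003 bp from Cdcp2 and 1005 bp from Morn1, and just outside were those 998 bp from B3gnt3 and 999 bp from Mmp9. At the upper limit the nearest inside lay 49990 bp from Prdm2 and 49954 bp from D630045J12Rik, and the nearest outside 50040 bp from Thoc7 and 50048 bp from Zfp800.

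H3K27ac was already detected at Pre_PS in 2363 of 8108 stable distal regions (29.1%, 95% Wilson interval 28.2 to 30.1). With the same number of peaks taken from each list it was 68.3% of 1757 regions. The share over all merged regions, with the full lists, was 23.6%, and over all merged regions at these distances it was 10.7%. Among the regions at the same distances it was 1.10% with a peak at 1 later stage, 2.09% at 2, 2.71% at 3 and 4.43% at 4 (interval 3.76 to 5.22). The difference between 4 and 5 stages exceeded both intervals. Stable regions over 50 kb from a gene had a share of 26.9% (24.7 to 29.2), which overlaps that of the stable distal regions, and those within 1 kb had 65.1%. The share also moved with width. Among stable distal regions it was 5.91% up to 800 bp, 25.6% over 800 to 1200 bp, 42.0% over 1200 to 2000 bp, 38.8% over 2000 to 4000 bp and 54.2% above 4000 bp. Regions of 1 to 4 stages in the same width bands had 4.25% over 800 to 1200 bp, 5.02% over 1200 to 2000 bp and 7.42% over 2000 to 4000 bp. Up to 800 bp they had 1.70%, but there their median width was 455 bp against 687 bp. By distance it was 37.8% over 1 to 2 kb and 26.4% to 29.6% in each wider band out to 50 kb.

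**Figure D1:**
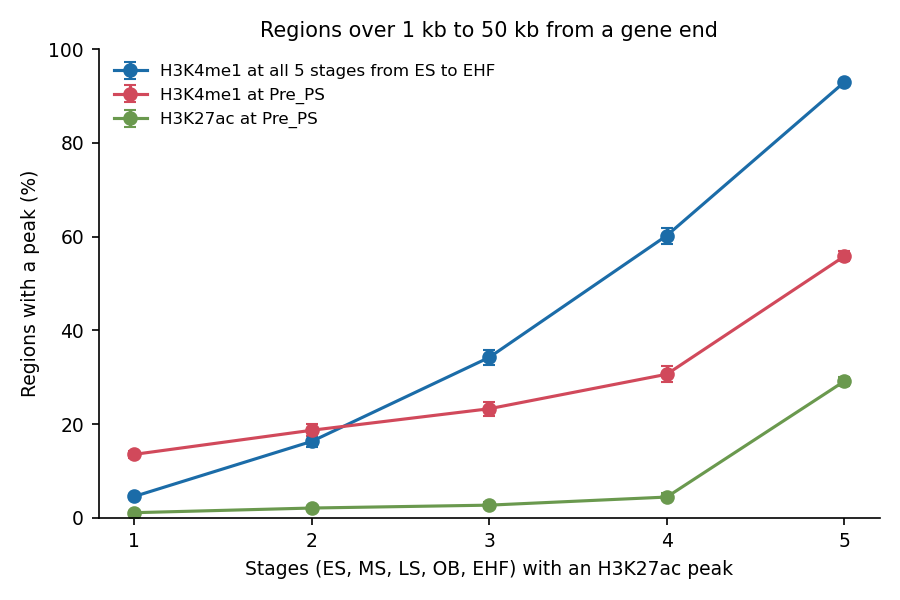
Share of regions over 1 kb to 50 kb from a gene end with a peak (%, vertical axis) against the number of later stages with H3K27ac (horizontal axis), with 95% Wilson intervals. H3K27ac at Pre_PS stays at or below 4.43% through 4 stages and is 29.1% at 5, while H3K4me1 at all 5 later stages runs from 4.56% to 93.0%.

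Most stable distal regions carried H3K4me1 at each later stage. H3K4me1 was found at all 5 later stages in 7537 regions (93.0%, 92.4 to 93.5), beside 54.2% of all merged regions. At the same distances the share was 4.56%, 16.3%, 34.2% and 60.2% for regions acetylated at 1, 2, 3 and 4 stages. Over 800 to 1200 bp of width it was 95.7% for the stable distal regions and 36.6% for regions of 1 to 4 stages, and over 1200 to 2000 bp it was 95.3% and 45.4%. By stage, H3K4me1 was present in 7978 regions at ES, 7890 at MS, 8071 at LS, 8063 at OB and 7801 at EHF, beside 78.0%, 71.5%, 79.1%, 79.8% and 64.8% of all merged regions. None of the 8108 lacked H3K4me1 at every stage, which allows a share of up to 0.0370%, beside 6.63% of all merged regions. H3K4me1 was found at 1, 2 or 3 stages only in 8, 14 and 87 regions, and these were narrow, with median widths of 629.5, 634 and 678 bp. At Pre_PS, H3K4me1 was found in 4525 regions (55.8%), beside 40.0% of all merged regions, and in 31.4% when peaks at the lowest value were left out of every list. H3K4me1 at all 6 stages was found in 4355 regions (53.7%), beside 31.9% of all merged regions.

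H3K27ac and H3K4me1 at Pre_PS overlapped only in part. Of the 2363 regions with H3K27ac at Pre_PS, 74.6% also had H3K4me1 at that stage, against 48.1% of the 5745 regions without it. The regions with H3K27ac were also wider, with a median of 1547 bp against 1016 bp. Within width bands the H3K4me1 shares were 62.3% and 48.9% over 800 to 1200 bp and 77.5% and 55.9% over 1200 to 2000 bp, while up to 800 bp they were 29.5% and 30.6%. These shares include H3K4me1 peaks at the lowest value, without which the share over all stable distal regions was 31.4%, and the part of the sparse Pre_PS lists in the difference was not tested.

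Regions that held a listed transcript start were more often acetylated at Pre_PS. A start of a protein-coding gene lay in 941 stable distal regions (11.6%), beside 20.7% of all merged regions and 4.1% of all merged regions at these distances. The share was 0.414%, 0.542%, 0.828% and 1.05% in regions of 1, 2, 3 and 4 stages. A further 335 regions (4.13%) held the start of a long noncoding RNA (lncRNA) gene only, and 6832 (84.3%) held no start of the table, which is not complete. H3K27ac at Pre_PS was found in 630 of the 941 with a coding start (67.0%, 63.9 to 69.9), in 38.8% of those with a lncRNA start (33.7 to 44.1) and in 23.5% of those with none (22.5 to 24.5). The 3 intervals did not overlap. Regions with a coding start were also wider, with a median of 1399 bp against 1131 bp, but the order held within width bands above 800 bp, at 48.2%, 33.3% and 22.0% over 800 to 1200 bp and 81.8%, 45.7% and 32.0% over 1200 to 2000 bp. Up to 800 bp it did not, with 1 of 71, 3 of 41 and 108 of 1784 regions.

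**Figure D2:**
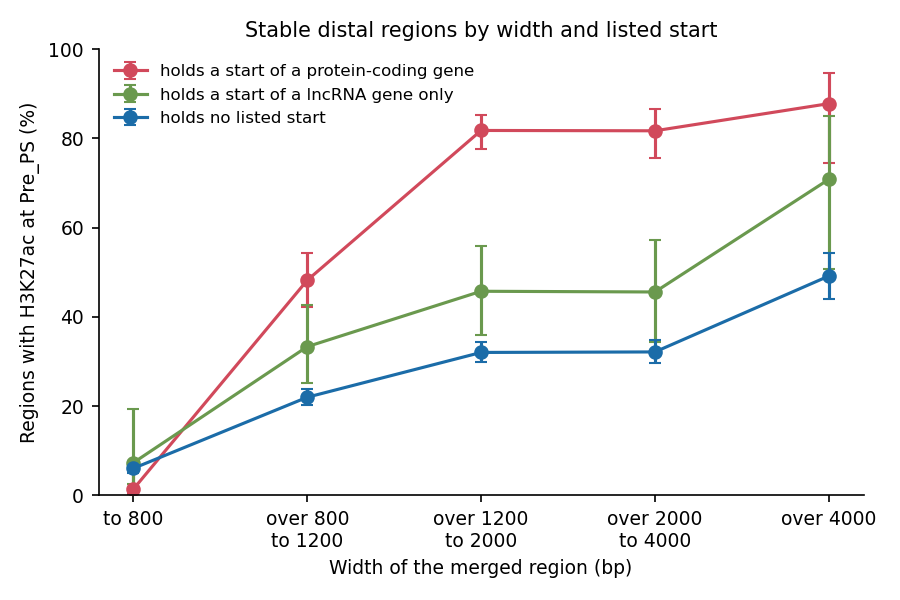
Share of stable distal regions with H3K27ac at Pre_PS (%, vertical axis) by merged width in bp (horizontal axis) for regions with a coding start, a lncRNA start only or no listed start, with 95% Wilson intervals. From 1200 to 4000 bp the regions with a coding start lie near 82% (81.8% and 81.7%) and those with none near 32% (32.0% and 32.1%).

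The starts within stable distal regions were rich in CpG. RefSeq listed 3472 starts of protein-coding genes more than 1 kb from an outer gene end, and 1141 of them (32.9%) fell in stable distal regions. Their 300-base windows had a median GC content of 63.0% and 21 CpG, and the observed CpG count was 0.732 of that expected from base content. The 1652 distal starts in no H3K27ac region had a median of 48.3% GC, 4 CpG and a ratio of 0.215. For lncRNA genes 531 of 6041 distal starts (8.79%) were in stable distal regions, with a median of 14 CpG against 3 in the 5117 in no H3K27ac region. Thus the Tbx4 window printed above, with 8 CpG, is at the sparse end and the Dnmt3a window, with 46, at the dense end.

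**Figure D3:**
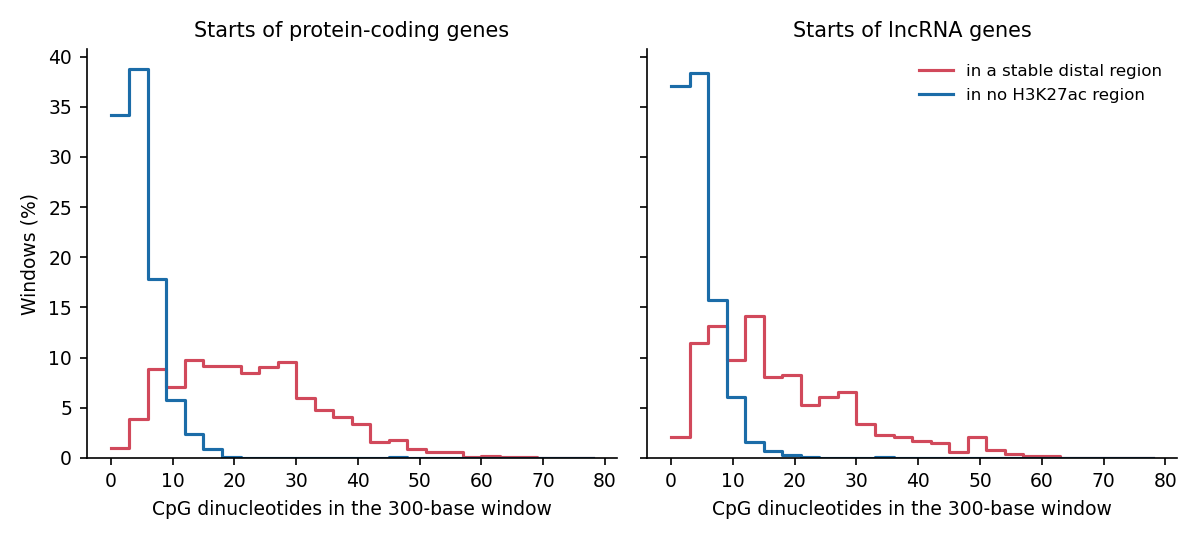
Share of 300-base windows (%, vertical axis) by number of CpG dinucleotides (horizontal axis, bins of 3) at distal starts of protein-coding genes (left) and lncRNA genes (right). Windows in stable distal regions spread around medians of 21 and 14, and windows in no H3K27ac region pile up near medians of 4 and 3.

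Short motifs followed the same division. GGGCGG, the letters of the GC box bound by Sp factors, was on either strand in 69.6% of coding-start windows within stable distal regions, in 10.3% of those in no H3K27ac region and in 46.7% of all 21045 coding-start windows. CCGGAAGT, an Ets-type motif, was in 5.70%, 0.726% and 5.20% respectively, and CACGTG, an E-box, in 9.38%, 3.27% and 7.91%. AGATAA, bound by zinc finger factors of the GATA family, was in 5.61%, 15.6% and 9.68%, and TAATTA, a homeodomain motif, in 2.10%, 6.36% and 4.47%. The windows also differed in GC content, as given above, and the part of base composition in these shares was not tested. A match describes letters only, and the sequence of regions without a listed start was not analysed here.

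Most stable distal regions were intragenic. Of 8108, 5844 (72.1%, 71.1 to 73.0) lay inside a protein-coding gene, beside 47.6% of all merged regions. The latter include regions over a gene end, which count as inside only where another gene covers them. The share was 60.4% to 67.2% for regions of 1 to 4 stages at the same distances and 47.5% for stable regions over 50 kb away. Regions with a coding start lie inside genes by the distance rule. They made up 11.6% of stable distal regions against 0.414% to 1.05% of regions of 1 to 4 stages. The intragenic shares without them were not compared. Position relative to the nearest gene was read for the 6327 regions whose nearest gene had a listed strand. Of these, 31.9% were inside that gene and nearest to its 5′ end, against 23.2% of regions of 1 to 4 stages. The shares inside that gene and nearest to its 3′ end were 34.2% in both. Regions upstream of the nearest gene made up 15.8% against 21.3%, and those downstream 18.1% against 21.3%. Either kind can lie inside another gene. H3K27ac at Pre_PS was found in 31.4% of the regions inside genes (30.2 to 32.6) and 23.3% of those between genes (21.6 to 25.1), with median widths of 1317 and 967 bp. All 941 regions with a coding start lay inside genes, which the distance rule fixes, since such a region holds no gene end. Without them the share inside genes was 24.6% (23.4 to 25.8), which overlaps that between genes.

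Stable distal regions were spread over many genes, and a few genes had 10 or more. They were nearest to 4987 of 21631 protein-coding genes (23.1%), of which 3339 had 1 region, 1481 had 2 to 4 and 167 had 5 or more, which together held 13.7% of the regions. Among those with most were Lmx1b, a LIM homeodomain factor, with 14, and the neural crest and muscle factor Pax7, the adhesion protein Flrt1 and the cytoskeletal septin Septin9, with 12 each. Hspg2 (perlecan, a basement membrane proteoglycan), Ccdc85c, Nol4l and the receptor phosphatase Ptprf had 11 each, and the zinc finger factor Casz1 had 10. All 14 Lmx1b regions and all 10 Casz1 regions had H3K4me1 at every later stage, beside 93.0% of all stable distal regions. Regions within 10 kb of each other formed 1216 groups of at least 2, which held 3164 regions (39.0%). With equally long lists of the strongest peaks Lmx1b had 2 regions, Casz1 1 and Pax7 none, so these counts depend on weaker peaks. The largest group had 12 regions over 77.9 kb at Lmx1b (chr2:33555510-33633422).

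The genes with most regions differed in how much of them was acetylated at Pre_PS. H3K27ac over the Casz1 regions summed to 8.29 kb at Pre_PS and 35.8, 32.0, 32.4, 30.7 and 29.4 kb at ES, MS, LS, OB and EHF. The 14 Lmx1b regions had 0.717 kb at Pre_PS and 18.1, 20.3, 23.3, 20.7 and 19.7 kb later. At Pre_PS 5 Casz1 regions and 1 Lmx1b region had a peak. H3K4me1 over the Lmx1b regions was 10.1 kb at Pre_PS and 24.7 to 27.4 kb later. The Pax7 regions had 0.446 kb at Pre_PS, 17.0 kb at ES, and 13.4, 13.5, 11.0 and 10.0 kb at MS, LS, OB and EHF, so the earliest of the 5 lists gave their longest value and EHF their shortest.

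The widest common core, 26246 bp, lay inside Gse1 with Gins2 as the nearest gene (chr8:120545919-120576576). It was acetylated over 7280 bp at Pre_PS and 27997, 28081, 28151, 27537 and 29652 bp later. Wide cores also lay in a region inside Kmt2d, an H3K4 methyltransferase gene (11601 bp, chr15:98849040-98866427), and in regions inside Ltbp4, a binding protein of latent TGF-beta (10511 bp), and Adgrb2, an adhesion receptor (10286 bp). These 4 regions had H3K27ac at Pre_PS and H3K4me1 at all 6 stages, beside 29.1% and 53.7% of all stable distal regions. They were picked for wide cores, and the Pre_PS share given above was highest in the widest band. Regions with H3K4me1 at all 6 stages had a median width of 1445 bp, against 1190 bp for all. The 29.1% and 53.7% are therefore not shares of equally wide regions.

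The 22 gene lists differed in how many genes had a stable distal region nearest, against 23.1% of all protein-coding genes. Genes also differ in how much sequence they can claim: the bases over 1 kb to 50 kb from an end that was the nearest had a median of 42.0 kb per gene over all genes. Over all genes there were 6.63 stable distal regions per Mb of such sequence. Lists are therefore given with both measures, and no list was tested.

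Lateral plate, extraembryonic and cardiac mesoderm had 20 of 24 genes with a region and 18.2 regions per Mb. Gata4, a heart and endoderm factor, had 4 regions, summing to 1.22 kb at Pre_PS and 4.65 to 5.02 kb later. Tbx4 had 4 with 2.49 kb at Pre_PS and 5.51 to 6.29 kb later, and Hand2, a heart and limb factor, had 4 with 0.426 kb at Pre_PS and 2.28 to 2.86 kb later. Nascent and paraxial mesoderm had 11 of 19 genes and 19.3 per Mb. Its Snai1, a repressor of epithelial genes, had 4 regions with 0.566 kb at Pre_PS and 6.64 to 8.52 kb later, and its Meox1, a somite homeobox factor, had 3, none acetylated at Pre_PS. Of the 44 lateral plate regions 7 had H3K27ac at Pre_PS, and of the 22 paraxial regions 3, beside 29.1% of all stable distal regions.

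Blood and endothelium had 9 of 20 genes and 12.2 regions per Mb, and 12 of its 21 regions had H3K27ac at Pre_PS, beside 29.1% of all stable distal regions. Zfpm1, a Gata cofactor, had 5 regions with 3.30 kb at Pre_PS and 11.8 to 19.3 kb later. Gata2 had 2 with 3.73 kb at Pre_PS and 5.53 to 6.61 kb later, and its H3K4me1 covered 3.76 kb at Pre_PS and 6.37 to 6.73 kb later. Lyl1, a bHLH factor of blood, had 5 with 2.06 kb and 11.3 to 14.9 kb. All 5 Zfpm1 regions and all 5 Lyl1 regions were inside a gene, beside 72.1% of all stable distal regions. The Lyl1 regions lay outside Lyl1, 7.42 to 37.5 kb from its nearer end, so the gene around them is another one.

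The epiblast and pluripotency list had 13 of 24 genes and 14.4 regions per Mb, and 4 of its 26 regions had H3K27ac at Pre_PS, beside 29.1% of all stable distal regions. Pou3f1, a POU factor of epiblast and neural cells, had 8 regions 4.08 to 49.9 kb away, all outside genes. All 8 had H3K4me1 at every later stage, beside 93.0% of all stable distal regions, and none was acetylated at Pre_PS. They summed to 4.58, 3.97, 4.53, 4.25 and 3.90 kb from ES to EHF. Primitive streak had 7 of 16 genes and 18.97 per Mb. Wnt3, a ligand needed for streak formation, had 2 regions inside a gene with 0.96 kb at Pre_PS and 5.58, 5.78, 5.62, 5.52 and 5.23 kb later. The endoderm and node list had 11 of 20 genes and 13.9 per Mb, with 5 regions at the pioneer factor Foxa1 and 2 at its relative Foxa2. Otx2, an anterior homeobox factor on 3 of the lists, had 2.

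The neural plate list had 15 of 26 genes and 54 regions, at 20.2 per Mb. H3K27ac at Pre_PS was found in 18 of the 54, beside 29.1% of all stable distal regions. Pax7 (12), Pax2 (7) and Lhx2 (6), all transcription factors of the early nervous system, had the most. Pax2 regions had 5.03 kb at Pre_PS and 14.2 to 18.8 kb later. Surface ectoderm and amnion had 9 of 16 genes and 21.9 per Mb, with Wnt7b, a Wnt ligand, at 9 regions and Tfap2a, an ectoderm and neural crest factor, at 6. The 4 regions of Grhl3, an epidermal factor, had neither mark called at Pre_PS and 2.53 to 3.76 kb of H3K27ac later.

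Posterior Hox and Cdx genes had 10 of 24 genes, a median of 11.9 kb of nearest sequence per gene and 37.4 regions per Mb, the highest density of the 22 lists. The 2 Hoxb3 regions had no H3K27ac at Pre_PS, 2.40 kb of H3K4me1 at Pre_PS, and 4.02, 4.42, 4.55, 4.48 and 4.77 kb of H3K27ac later. The 3 Hoxd3 regions had 2.96 to 3.45 kb later and none at Pre_PS.

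Of the signalling lists, Notch had 19 of 24 genes and 25.6 regions per Mb, Wnt 27 of 40 and 18.7, Nodal, Activin and TGF-beta 14 of 25 and 14.4, Bmp 12 of 24 and 16.3, Fgf 13 of 24 and 12.9, and Hippo 9 of 20 and 12.6. Among ligands, Bmp7 had 7 regions and Wnt11 4, none acetylated at Pre_PS, beside 29.1% of all stable distal regions. The Bmp7 regions summed to 5.08, 5.29, 7.501, 6.76 and 7.29 kb from ES to EHF. Among receptors, Notch1 had 4 regions with 1.19 kb at Pre_PS and 9.01 to 12.5 kb later, Notch3 had 7, Fgfr1 4, Fgfr3 3 and the activin receptor Acvr2b 4.

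Several inhibitors and targets in these lists also had regions. Smad6, an inhibitor of Bmp signalling, had 10 regions with 2.53 kb at Pre_PS and 9.32, 9.01, 10.2, 10.2 and 9.47 kb later. Axin2 had 6 with 4.24 kb at Pre_PS and 9.63, 8.37, 10.4, 10.1 and 9.46 kb later. Id3, a Bmp target that blocks bHLH factors, had 5 with 2.20 kb at Pre_PS and 4.38 to 5.37 kb later. The TGF-beta inhibitor Pmepa1 had 6 with none at Pre_PS, 6.87 to 7.67 kb at ES, MS and LS, and 3.44 and 4.78 kb at OB and EHF. The Hippo-linked Amotl2 had 7 regions and Vgll4, a Tead cofactor, 4.

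**Figure D4:**
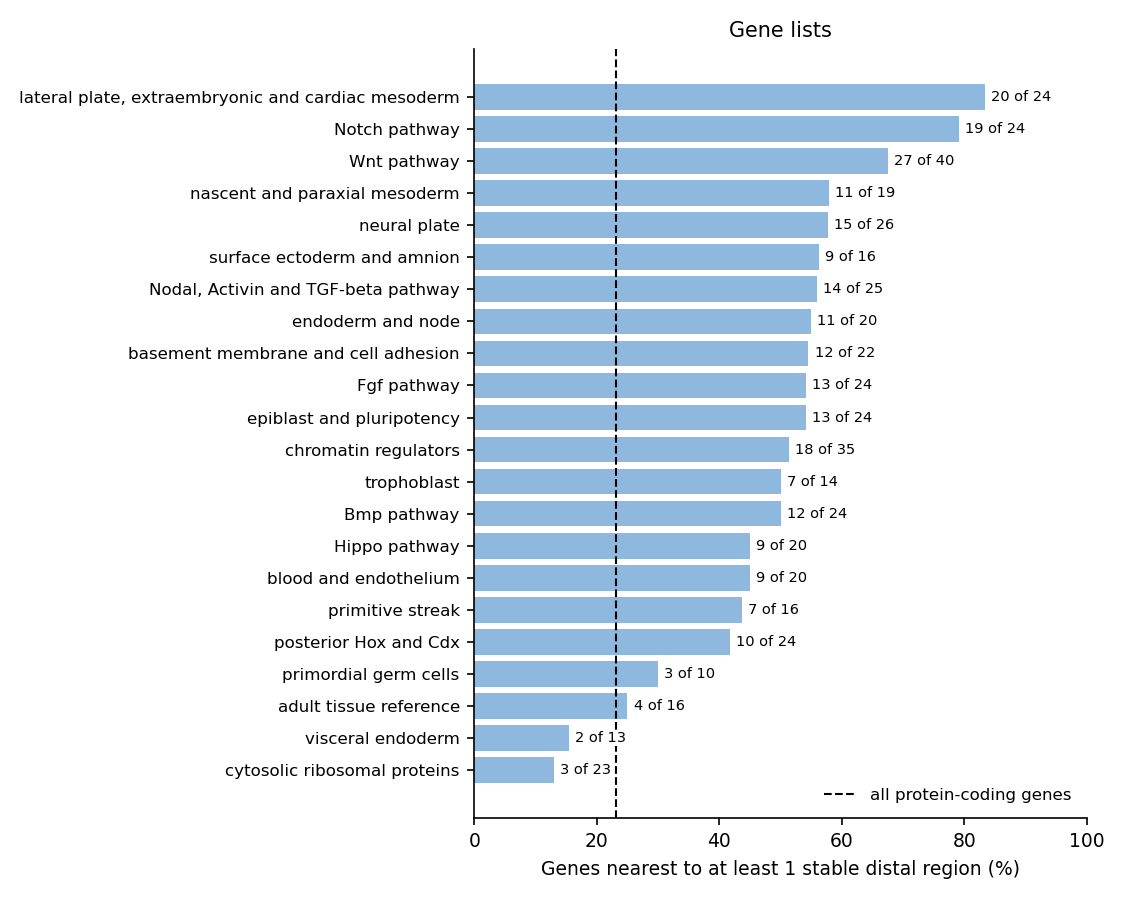
Share of the genes of each list that are nearest to at least 1 stable distal region (%, horizontal axis), with the count beside each bar and a dashed line at 23.1% for all protein-coding genes. Lateral plate mesoderm (20 of 24) and Notch (19 of 24) are highest, and visceral endoderm (2 of 13) and ribosomal proteins (3 of 23) lie below the line.

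Chromatin regulators had 18 of 35 genes, 13.7 regions per Mb, and H3K27ac at Pre_PS in 20 of 40 regions, beside 29.1% of all stable distal regions. Dnmt3a had 8 regions with 3.25 kb at Pre_PS and 8.65 to 14.4 kb later, and Kmt2d had 3 with 8.49 kb and 19.3 to 24.3 kb. Basement membrane and adhesion genes had 12 of 22 and 16.2 per Mb.

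Lists for other cell types and for housekeeping gave shares of genes nearer to, or below, that of all genes, with trophoblast the exception. Per Mb, only visceral endoderm among them lay below the 6.63 of all genes. Ribosomal protein genes had a median of 7.99 kb of nearest sequence, against 42.0 kb over all genes. Visceral endoderm had 2 of 13 genes and 4.53 regions per Mb, at Hnf4a and Soat2. Primordial germ cells had 3 of 10 and 7.87, cytosolic ribosomal proteins 3 of 23 and 7.76, and genes of adult tissues 4 of 16 and 10.5. Trophoblast had 7 of 14 and 9.33 per Mb, among them Gata3 and Hand1, which surface ectoderm and mesoderm also express. None of the 6 adult-tissue regions or the 3 ribosomal-protein regions had H3K27ac at Pre_PS, beside 29.1% of all stable distal regions. Both counts are too small to set these lists apart.

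Within the stable distal regions the acetylated length varied between stages. The longest later-stage length was a median of 1.53 times the shortest, it was under 1.5 times in 3831 regions (47.2%) and over 3 times in 965 (11.9%). The length was greater at both OB and EHF than at both ES and MS in 1047 regions (12.9%) and smaller in 1769 (21.8%), beside 12.8% and 22.3% of all 22467 five-stage regions. When each length was divided by the bases its list covered, the order turned, with 1695 greater (20.9%) and 1004 smaller (12.4%). The lists covered 41.4 Mb at ES, 35.9 Mb at MS, 36.4 Mb at OB and 36.2 Mb at EHF, and no direction over the set is given. At OB and EHF no removal of tissue outside the embryo proper is described, unlike at ES and MS. Stage and dissection therefore cannot be told apart in any difference between these pairs of stages.

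The regions with the largest changes were named by nearest gene. A region in Lama5, a laminin chain of basement membranes (chr2:180214368-180223383), had 4797, 3977, 6500, 6942 and 7464 bp from ES to EHF. Regions at Abcb9, Spag9, Agtrap and in Adgra2 (nearest gene Brf2) also lengthened, the Agtrap region from 1438 and 692 bp to 3452 and 3478 bp at OB and EHF. Regions in Elfn2, Rcc2 and Pla2g6 shortened, Elfn2 from 11114 bp at ES to 5477 and 6180 bp at OB and EHF. The region near Mid1 on chromosome X had 4048, 5589, 861, 840 and 745 bp from ES to EHF. These 9 regions had H3K4me1 at all 6 stages, beside 53.7% of all stable distal regions. They were picked for their size of change, so they get no test. A large change in bp needs a wide region, so the 53.7% is not the share at like width.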

How the data were processed

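CoBATCH peak lists for H3K27ac and H3K4me1 at 6 stages of C57BL/6 embryos were used, 1 per mark and stage. The submitters' processing notes name Bowtie2, Picard, MACS2, deepTools and mm10, with no roles or versions. The deposited lists are broad peaks, 1 list per sample. By their layout the authors give each peak a fold enrichment (ratio), a −log10 p-value and a −log10 q-value, and a deposited score that was not used. Peaks on chromosomes 1 to 19 and X were kept, and 481 peaks elsewhere were left out.

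H3K27ac peaks of ES, MS, LS, OB and EHF were merged where they overlapped or touched, and a mark was present with an overlap of at least 1 bp. Distance ran from the edge of a region to the nearer outer end of 1 of 21631 protein-coding genes of RefSeq GRCm38.p6, which shares its coordinates with mm10. Folds were compared only within a list. The background estimate is the value at which the lowest fold matches a small whole number of fragments. Shares have 95% Wilson intervals. Motifs were sought on both strands of RefSeq start windows. These windows replaced planned region centres, since no genome was used here, and were chosen after the data were seen.

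Genes named are the 10 nearest to most regions, up to 3 per list nearest to most regions, and the nearest genes of the regions with the widest cores, largest changes and distances nearest the limits. Some of the genes and regions this rule takes are not reported here. The regions, the 22 lists (440 of 441 genes matched) and the tests were chosen with earlier results of these data known. Merging and counting were tested on simulated data. Python 3.11.15, pandas 2.3.3 and scipy 1.17.1 were used. The alternatives were stricter and equal-sized lists, no lowest-value peaks, a larger overlap, a merge gap, other distance rules and, chosen after seeing the data, leaving out 1 H3K27ac list at a time.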

Additional observations from a re-analysis of the deposited data

How the results depend on the processing

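With 1 library per stage the values have no replicate error. The number of regions and of nearest genes, 8108 and 4987, became 2703 and 2223 with the upper 50% of each list by −log10 q, and 1757 and 1547 with the 13398 strongest peaks of each list. H3K27ac at Pre_PS, 29.1%, became 32.7% and 68.3% in these settings, 26.2% without peaks at the lowest value, 22.4% when peaks had to cover 50% of a region, 35.9% with distance from the middle, and 28.1% with a limit of 2 kb. H3K4me1 at all 5 later stages, 93.0%, became 95.5% with the upper 50%, 80.3% with equal numbers, 89.0% with 50% cover and 94.1% from the middle, and no H3K4me1 at any stage became 0.968% with equal numbers. The intragenic share, 72.1%, became 71.1% with 50% cover, 68.6% from the middle and 70.4% over 2 kb. Merging peaks up to 500 bp apart left these 6 values within their limits of change. Leaving out 1 of the 5 lists, chosen after seeing the data, gave 8303 to 9661 regions, 5084 to 5610 genes, Pre_PS shares of 25.3% to 28.7%, H3K4me1 shares of 88.6% to 92.1%, no H3K4me1 in 0% to 0.0340%, and intragenic shares of 71.5% to 72.1%. The cause was not tested, beyond fewer peaks entering the stricter lists. The Pre_PS share of regions with a coding start stayed above that of the others in each of the 7 planned settings, from 49.9% against 26.0% with the upper 50% to 81.4% against 60.9% with equal numbers. Counts per named gene depended on strength: with equal numbers 2 of 70 genes stayed within 1.5 times their count and 28 had no region left, Pou3f1 among them. No paired analysis was possible because each stage had 1 library per mark. A missing peak at Pre_PS means only that none was called in those shorter lists.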

Other observations

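A few stable distal regions had peak folds far above the rest, chosen here after their values were seen. The median highest fold per region was 6.33 to 8.34 across the 5 later H3K27ac lists. The region inside Filip1l and Cmss1 (chr16:57390808-57391964) had folds of 104, 75.3, 102, 52.1 and 56.8 from ES to EHF and 19.5 at Pre_PS. A region inside Sfi1 (nearest gene Gm51877) had 41.6 to 78.4, one inside Cdk8 had 31.1 to 70.1 and one inside Zc3h7a had 29.8 to 51.7. The region at a start of Zbtb11 had 25.5 to 40.3. All 5 had H3K4me1 at all 6 stages and H3K27ac at Pre_PS, beside 53.7% and 29.1% of all stable distal regions. They were picked by fold, and the 53.7% and 29.1% are not shares of regions with like folds. Folds from different lists are not on a common scale. No list of problem regions was used here, so whether these folds reflect the marks was not tested.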
